A study of Rattus norvegicus with 22 samples.

Results

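The genes described here are 40 genes that act in mitosis: cyclins and regulators of CDK1, mitotic kinases, centromere and kinetochore proteins, kinesins and other spindle proteins, cytokinesis proteins, and factors of anaphase onset and mitotic ubiquitination. A probe was taken as a member where the gene name in the scanner files was one of the 40. This rule found 36 of the 40 genes, on 44 of the array's 30367 probes. Mki67, Anln, Ect2 and Kif4a were found under no probe of that name. All 36 genes passed the filter on dim probes, and 35 of them were well above background on all 22 arrays. Cenpe passed on 19 arrays and missed on stretch replicates 4, 5 and 7.

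The samples were engineered cardiac tissues (ECT), heart muscle constructs built from cells of the embryonic heart ventricle (Sprague Dawley rat, gestational day 14.5) and kept in culture for 7 days. The 4 groups are these. In the stretch with BIRB796 group (4 arrays) tissues received 10 µM BIRB796, an inhibitor of p38 MAP kinase, together with cyclic stretch at 0.5 Hz and 5% elongation. The BIRB796 group (4 arrays) received the inhibitor alone, the stretch group (7 arrays) the cyclic stretch alone, and the control group (7 arrays) neither. Treatments began on culture day 5 and lasted 48 h. All 12 cardiomyocyte markers examined were well above background on all 22 arrays. So were 7 of 9 fibroblast, 7 of 9 macrophage, 5 of 8 endothelium, 6 of 6 smooth muscle, 5 of 7 mesothelium and 3 of 5 erythroid markers. The tissues therefore did not hold cardiomyocyte RNA alone. In such bulk samples a larger number of dividing cells and more of a transcript per cell cannot be told apart.

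The arrays were scanned in 3 sessions, by the scan times in the file headers. Session 1 held stretch replicates 1 to 3 and control replicates 1 to 3, with 1 of each on each of slides 1, 2 and 3. Session 2 held stretch replicates 4 to 7 and no control. Session 3 held all arrays with BIRB796 and control replicates 4 to 7. With the session in the fit, stretch was therefore compared with control within session 1, and both BIRB796 groups with control within session 3. Stretch replicates 4 and 5 differed by less than the noise between repeated spots and were counted as 1 sample. Control replicates 4, 5 and 6 differed by 1.18 to 1.62 times that noise and were kept apart. The closest pairs with BIRB796 differed by 1.27 (stretch with BIRB796 replicates 2 and 3) and 1.39 times (BIRB796 replicates 2 and 4). The session 3 groups may thus hold fewer independent samples than arrays. Levels are given as log2 signal relative to the array's 75th percentile, so 0 is the 75th percentile of that array and a difference of 1 is a 2-fold difference. A level is compared between arrays for the same probe, never between genes.

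Entry into mitosis is driven by the kinase CDK1 bound to B-type cyclins, and exit begins when the anaphase-promoting complex marks cyclin B and securin for destruction. Most of these genes are transcribed late in the cell cycle: in human cells their promoters are bound by the MuvB complex with B-MYB and FOXM1 at a motif called the CHR, and by NF-Y at the CCAAT box. Cells of the embryonic heart ventricle still divide, while most mammalian cardiomyocytes leave the cell cycle soon after birth. The p38 MAP kinase is known as a brake on the cell cycle of cultured rat cardiomyocytes.

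None of the 36 mitosis genes passed the test in any of the 6 comparisons (limma, Benjamini-Hochberg adjusted p under 0.05 over 23476 genes). All 36 had a positive log2 fold change with BIRB796 alone (52.2% of all genes tested), with a median of 0.26. Without slide 6, left out after seeing the data, that median was 0.14 with 33 positive. With stretch and BIRB796 together 33 were positive (56.2% of all genes), with a median of 0.24. Stretch alone gave a positive value in 2 of 36 (62.7% of all genes), with a median of -0.23. The medians over all genes were 0.01, 0.04 and 0.08 in the same 3 comparisons. The mean level of the 36 genes varied between replicates with an SD of 0.23, about as large as each of the members' medians in these 3 comparisons. The members were chosen with earlier results of these data known, so the comparison with all genes is not independent of that choice.

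**Figure D1:**
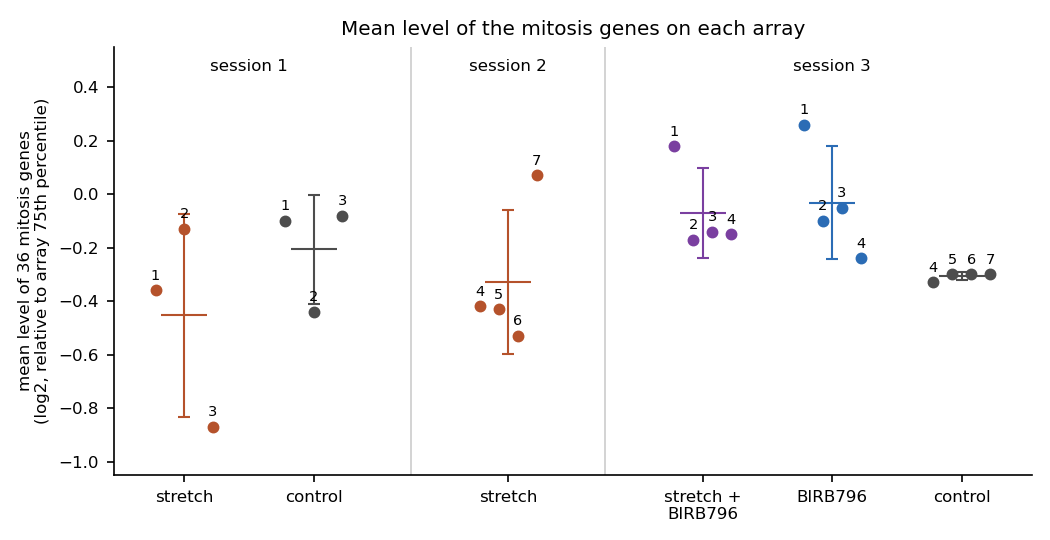
Mean log2 level of the 36 mitosis genes on each of the 22 arrays, relative to the array's 75th percentile, by group and scan session. Points are arrays with their replicate number, and bars give the mean ± SD over the arrays shown; all 8 arrays with BIRB796 in session 3 lie at -0.24 or higher, and the 4 controls of that session lie between -0.33 and -0.30.

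The mitosis genes moved together from array to array, also among replicates of 1 group. Among the BIRB796 arrays, replicate 1 was the highest for 35 of 36 members and replicate 4 the lowest for 29, while these arrays were the highest and the lowest for 38.1% and 24.0% of all genes. Among the arrays with stretch and BIRB796, replicate 1 was the highest for 33 members, against 40.8% of all genes. In session 1, stretch replicate 3 was the lowest of the stretch arrays for 34 members (54.7% of all genes) and control replicate 2 the lowest of the controls for 33 (23.4% of all genes). In session 2, stretch replicate 7 was the highest for 25 members (53.3% of all genes). That array was also the dimmest of the 22, with 65.5% of probes above background, against 71.2% to 91.2% on the others. The SD between replicates ran from 0.21 to 0.46 over the 36 genes, with a median of 0.29.

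**Figure D2:**
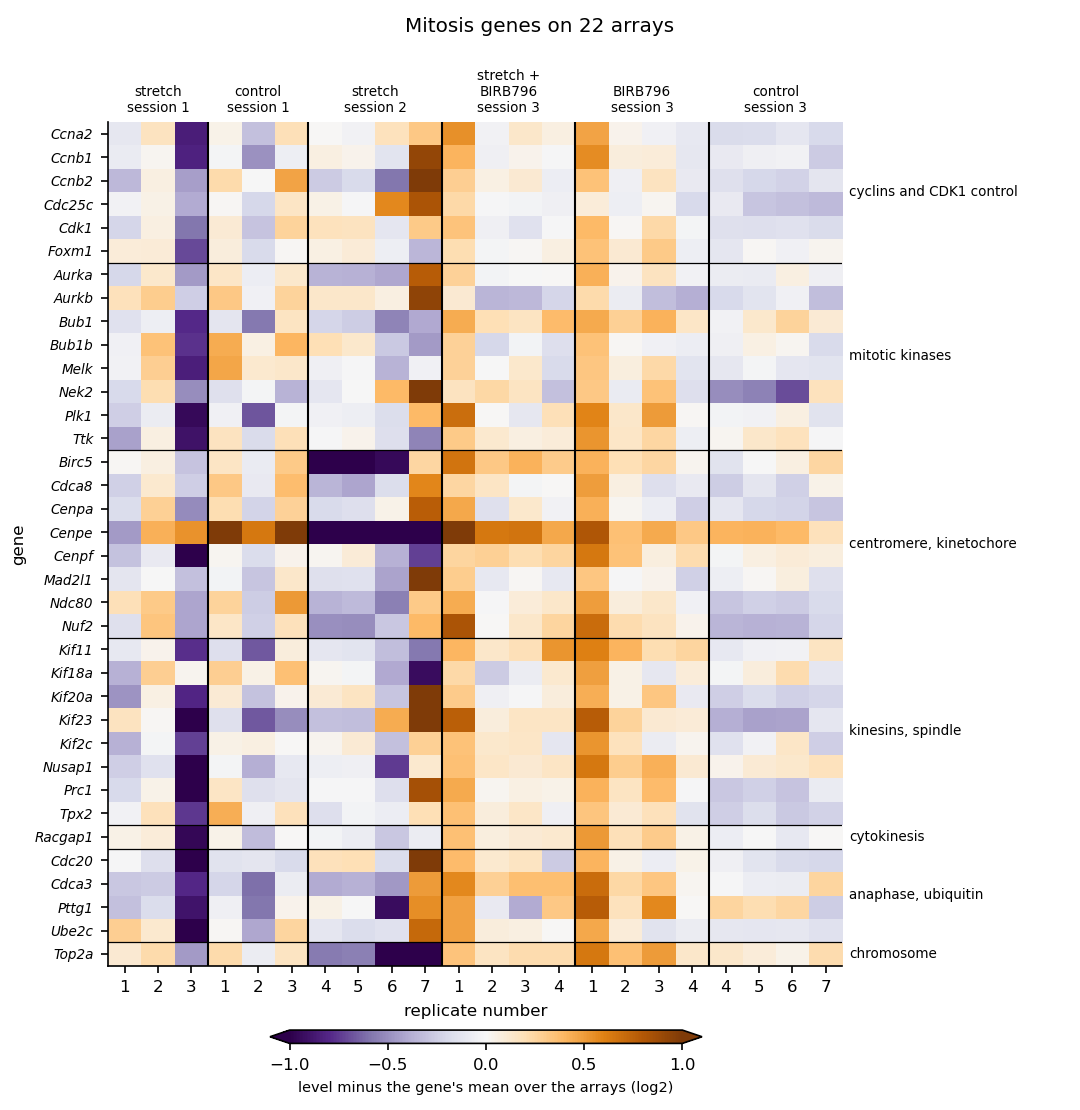
Log2 level of each of the 36 genes (rows, by role) on each of the 22 arrays (columns, by group and session), minus the gene's mean over the arrays; the colour scale ends at -1 and 1. Whole columns share a colour: stretch replicate 3 of session 1 is low for most genes, and replicate 1 of both BIRB796 groups is high, while Cenpe and Top2a are low in session 2.

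The promoters of these genes were also read for the 2 motifs named above. As the motifs are known from genes of this class, a high share could be foreseen whatever the arrays showed. The part of the motifs in the shared movement of the genes was not tested. RefSeq promoter windows of build GRCr8, which run from 250 bases before to 50 bases after the gene's start, were found for 34 of the 40 genes. The CHR motif (TTTGAA, either strand) was in 23 of the 34 (67.6%), against 18.3% of all 33469 windows. The CCAAT box (CCAAT, either strand) was in 24 (70.6%), against 37.5% of all windows, and both motifs were in 18 (52.9%), against 7.41%. In 22 of the 23 genes with a CHR, the nearest one lay between 100 bases before and 50 bases after the start. The same count was not made over all windows with a CHR, so this share has nothing to be set against. The 5 sequences below are the 250 bases before the start on the gene's strand, with both motifs in capitals. Ccnb2, Cdk1 and Top2a show the CHR close to the start with several CCAAT boxes, Kif23 had the largest value with BIRB796 alone, and Cenpe, which had the largest value with stretch, holds a CCAAT box and no CHR. A match of letters does not show that a factor binds there.

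Ccnb2, GRCr8 chr8:79981659-79981908, reverse strand: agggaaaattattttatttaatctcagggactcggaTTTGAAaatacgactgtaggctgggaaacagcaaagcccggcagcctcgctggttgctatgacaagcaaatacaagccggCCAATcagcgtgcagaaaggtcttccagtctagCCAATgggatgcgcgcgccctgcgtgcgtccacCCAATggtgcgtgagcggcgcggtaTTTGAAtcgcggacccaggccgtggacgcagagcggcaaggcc
Cdk1, GRCr8 chr20:19265043-19265292, forward strand: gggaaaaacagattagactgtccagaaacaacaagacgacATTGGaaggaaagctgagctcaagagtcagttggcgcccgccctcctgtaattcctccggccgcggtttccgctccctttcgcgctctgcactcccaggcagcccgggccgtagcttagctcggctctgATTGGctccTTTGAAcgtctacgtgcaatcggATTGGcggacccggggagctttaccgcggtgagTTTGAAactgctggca
Top2a, GRCr8 chr10:84473094-84473343, reverse strand: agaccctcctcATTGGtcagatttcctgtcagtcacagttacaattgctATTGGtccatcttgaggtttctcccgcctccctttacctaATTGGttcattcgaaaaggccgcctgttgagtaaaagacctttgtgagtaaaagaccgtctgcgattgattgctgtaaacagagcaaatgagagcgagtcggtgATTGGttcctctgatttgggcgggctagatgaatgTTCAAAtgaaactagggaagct
Kif23, GRCr8 chr8:71320585-71320834, reverse strand: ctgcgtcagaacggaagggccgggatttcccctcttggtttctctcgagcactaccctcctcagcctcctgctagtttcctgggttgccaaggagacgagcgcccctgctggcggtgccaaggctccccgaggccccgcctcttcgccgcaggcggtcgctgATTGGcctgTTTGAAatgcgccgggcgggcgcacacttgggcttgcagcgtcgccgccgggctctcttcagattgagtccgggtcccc
Cenpe, GRCr8 chr2:226310807-226311056, forward strand: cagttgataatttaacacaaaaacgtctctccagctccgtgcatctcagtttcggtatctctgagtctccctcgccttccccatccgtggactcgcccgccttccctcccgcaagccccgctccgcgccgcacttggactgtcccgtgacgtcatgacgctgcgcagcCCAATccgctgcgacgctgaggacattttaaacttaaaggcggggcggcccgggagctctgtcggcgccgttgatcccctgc

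Members with and without a CHR in the window had similar values. With BIRB796 alone the median log2 fold change was 0.27 in the 19 measured genes with a CHR and 0.23 in the 11 without, and with stretch alone it was -0.25 in both.

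**Figure D3:**
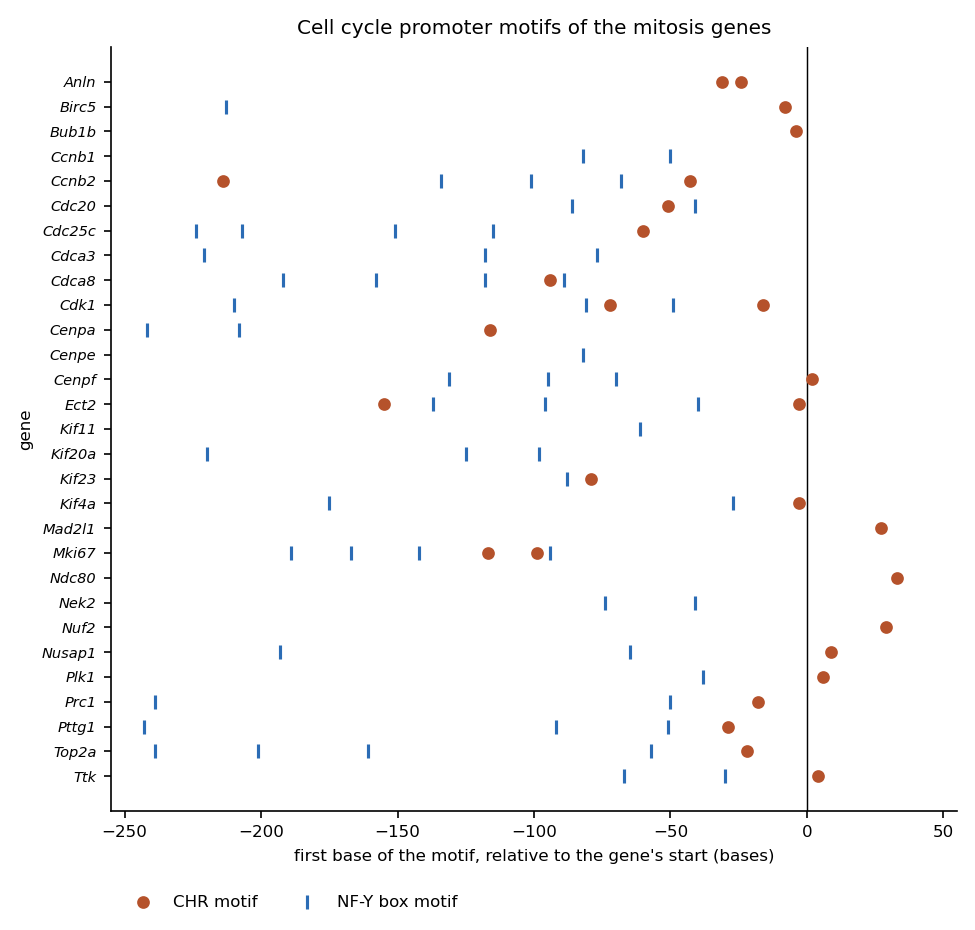
Position of the first base of each CHR motif (circles) and CCAAT box (bars, named NF-Y box in the legend), in bases relative to the gene's start, in the 29 promoter windows that hold either. The circles lie mostly within 100 bases of the start, and the bars mostly before them.

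The first comparison asks whether p38 inhibition alone alters the tissues' transcripts. With BIRB796 alone, mitosis genes of every role had levels above control: the 8 kinesin and spindle genes had a median log2 fold change of 0.36, the 6 cyclin and CDK1 control genes 0.26, the 4 anaphase and ubiquitin genes 0.26, the 8 centromere and kinetochore genes 0.23 and the 8 mitotic kinases 0.20. The single values ran from 0.03 to 0.65, with standard errors of 0.16 to 0.31. No member passed the test (0 of 36, lowest adjusted p = 0.541), nor did any of the 23476 genes (0%). At an unadjusted p under 0.05 stood 1 member, Nuf2, and 6.58% of all genes. The levels of the 4 BIRB796 arrays lay wholly above those of the 4 controls for 11 of 36 members, and for 6.62% of all genes. They lay wholly below for none, against 5.29% of all genes. Control replicates 4 to 6 were close to each other, which makes a lack of overlap easier to reach in any gene.

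Kif23 codes for a kinesin of the central spindle that is needed to finish cytokinesis. It had levels of 1.63, 1.12, 0.97 and 0.95 in BIRB796 tissues, against 0.48, 0.42, 0.43 and 0.74 in controls. The groups did not overlap, and BIRB796 replicate 1 was the highest. The log2 fold change was 0.65 ± 0.31 (SE), a 1.57-fold higher level that did not pass the test (limma adjusted p = 0.778).

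Nuf2 is a subunit of the NDC80 complex, which ties kinetochores to spindle microtubules. It had levels of 0.67, 0.19, 0.14 and 0.01 in BIRB796 tissues, against -0.38, -0.40, -0.39 and -0.24 in controls. All 4 treated arrays were above all 4 controls. The log2 fold change was 0.61 ± 0.22 (SE; limma adjusted p = 0.541). Its partner Ndc80 had levels of 0.85, 0.43, 0.49 and 0.31 in BIRB796 tissues, against 0.07, 0.11, 0.09 and 0.16 in controls, again without overlap, and a log2 fold change of 0.41 ± 0.21 (limma adjusted p = 0.837).

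Prc1 bundles the antiparallel microtubules of the central spindle. Its levels were 1.31, 1.05, 1.27 and 0.88 in BIRB796 tissues, against 0.61, 0.65, 0.60 and 0.81 in controls, with a log2 fold change of 0.46 ± 0.23 (limma adjusted p = 0.811). The mitotic kinase Nek2, which acts in centrosome separation, had levels of -3.60, -4.0, -3.57 and -4.08 in BIRB796 tissues, against -4.42, -4.46, -4.62 and -3.74 in controls. Control replicate 7 lay among the treated arrays, and the log2 fold change of 0.50 ± 0.29 had an adjusted p of 0.921 (limma). Nek2 has another probe, which was flat, with a value of 0.00 ± 0.42.

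Cdk1, the kinase that drives entry into mitosis, had levels of 3.65, 3.27, 3.49 and 3.24 in BIRB796 tissues, against 3.11, 3.10, 3.12 and 3.08 in controls. The groups did not overlap, and the log2 fold change was 0.31 ± 0.17 (limma adjusted p = 0.869). Cyclin B1 (Ccnb1), its main mitotic partner, had levels of 1.35, 0.87, 0.88 and 0.69 in BIRB796 tissues, against 0.70, 0.74, 0.76 and 0.53 in controls. Here BIRB796 replicate 4 lay within the controls' range, and the log2 fold change was 0.26 ± 0.23 (limma adjusted p = 1.00). Ccnb2 showed no overlap at 0.34, -0.06, 0.16 and -0.10 in BIRB796 tissues, against -0.16, -0.21, -0.24 and -0.13 in controls, with a log2 fold change of 0.27 ± 0.25. Foxm1, the transcription factor of many of these genes, was at 0.08, -0.16, 0.04 and -0.33 in BIRB796 tissues, against -0.38, -0.26, -0.31 and -0.24 in controls (log2 fold change 0.20 ± 0.17).

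Kif11 and Tpx2, which separate the spindle poles and start spindle assembly, also lay wholly above control. Kif11 was at 0.07, -0.12, -0.33 and -0.28 in BIRB796 tissues, against -0.63, -0.58, -0.57 and -0.37 in controls, with a log2 fold change of 0.37 ± 0.19 (limma adjusted p = 0.840). Tpx2 was at -1.18, -1.41, -1.33 and -1.65 in BIRB796 tissues, against -1.76, -1.68, -1.78 and -1.74 in controls, with a log2 fold change of 0.35 ± 0.18 (limma adjusted p = 0.840). The other members without overlap were cyclin A2 (Ccna2), the kinesin Kif20a and the cytokinesis regulator Racgap1, with log2 fold changes of 0.26, 0.40 and 0.31.

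Aurkb and Mad2l1 had the smallest values with BIRB796 alone. Aurkb, the kinase of the chromosomal passenger complex, was at -1.45, -1.75, -1.99 and -2.05 in BIRB796 tissues, against -1.87, -1.80, -1.72 and -1.99 in controls. The groups overlapped fully, and the log2 fold change was 0.03 ± 0.20. Mad2l1, a spindle checkpoint protein, was at 0.34, 0.00, 0.05 and -0.22 in BIRB796 tissues, against -0.04, 0.03, 0.09 and -0.14 in controls, with a log2 fold change of 0.06 ± 0.25.

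The remaining members overlapped between BIRB796 and control arrays. Among them were the kinases Plk1, which drives mitotic entry and centrosome maturation (0.35 ± 0.22), Bub1 (0.21 ± 0.17), of the spindle checkpoint, and Aurka (0.18 ± 0.21), of the centrosomes. The anaphase and ubiquitin genes Cdca3, which promotes mitotic entry through ubiquitination (0.29 ± 0.21), Cdc20, an activator of the anaphase-promoting complex (0.25 ± 0.25), and Ube2c, its ubiquitin-conjugating enzyme (0.20 ± 0.26), had values of similar size. So did the CDK1-activating phosphatase Cdc25c (0.22 ± 0.16), the centromeric histone Cenpa (0.24 ± 0.22) and Cdca8, of the chromosomal passenger complex (0.22 ± 0.20), while the kinesin Kif18a was near 0 (0.09 ± 0.20).

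BIRB796 replicate 1 carried much of the median: without it the median was 0.16, with 33 of 36 members positive, and without the other BIRB796 arrays it lay between 0.27 and 0.33. On slide 6, the slide that held both groups, all 36 members were higher on BIRB796 replicate 1 than on control replicate 4, with a median difference of 0.56. The other 3 BIRB796 arrays shared slide 9, which held no control. When session 3 was fitted alone, 15 members stood at an unadjusted p under 0.05, beside 18.9% of all genes, and none passed after adjustment (lowest adjusted p = 0.0842, Prc1), while 460 genes (1.96%) did.

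**Figure D4:**
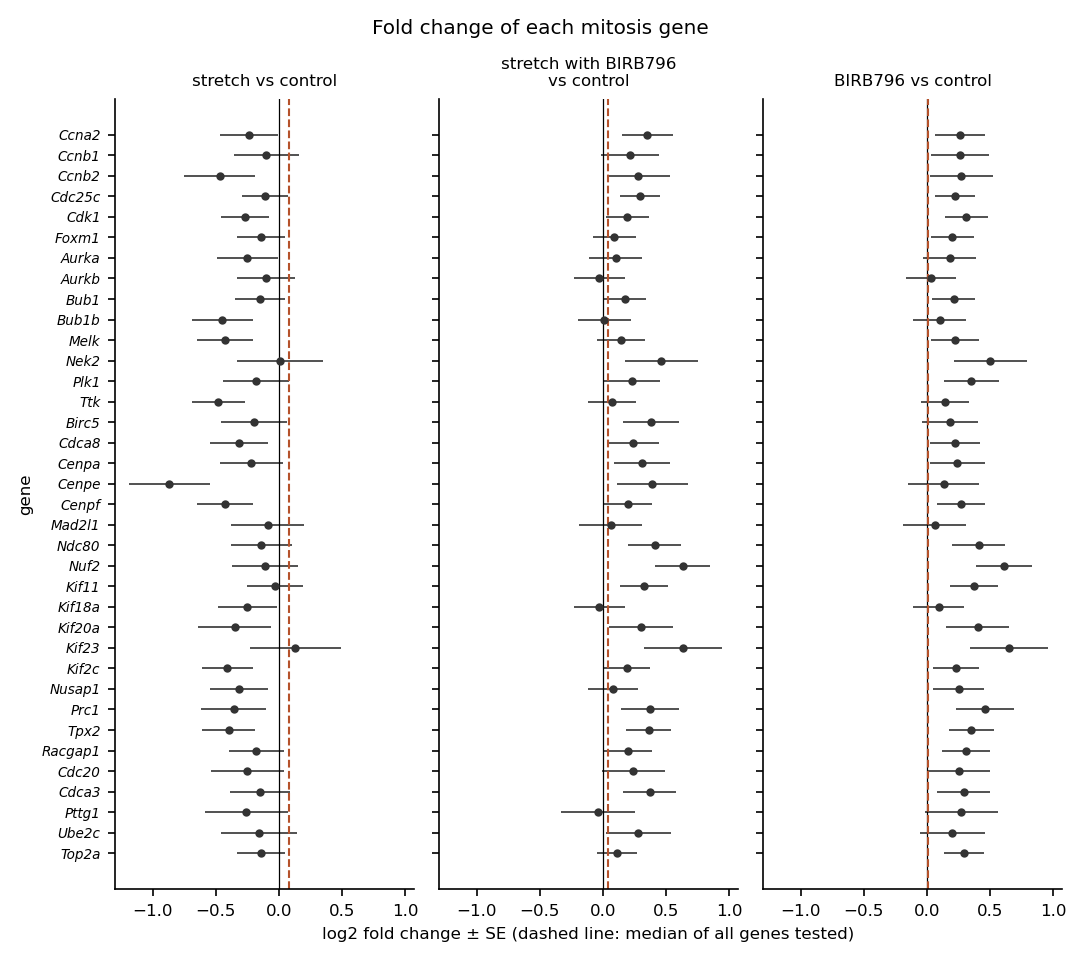
Log2 fold change ± SE of each of the 36 mitosis genes for stretch, for stretch with BIRB796 and for BIRB796, each against control; the dashed line is the median of all genes tested. The points lie mostly left of 0 for stretch (34 of 36) and right of 0 for both groups with BIRB796 (33 and 36 of 36).

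Stretch with BIRB796, set against the same 4 controls, gave values much like those of BIRB796 alone; the 2 comparisons share these controls. No member passed the test (0 of 36), against 23 of 23476 genes (0.098%), and 1 member, again Nuf2, had an unadjusted p under 0.05, against 9.6% of all genes. The 4 arrays lay wholly above the controls for 16 of 36 members, and for 8.69% of all genes, and wholly below for none, against 8.39%. The centromere and kinetochore genes had a median of 0.34 and the kinesin and spindle genes 0.31, the cyclin group 0.24, the anaphase and ubiquitin genes 0.26 and the mitotic kinases 0.12. Without stretch with BIRB796 replicate 1 the median of the 36 was 0.16, with 31 positive.

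Nuf2 had levels of 0.80, -0.02, 0.11 and 0.23 in tissues with stretch and BIRB796, against -0.38, -0.40, -0.39 and -0.24 in controls (log2 fold change 0.63 ± 0.22, limma adjusted p = 0.321). Kif23 was at 1.62, 0.94, 1.01 and 1.01, against 0.48, 0.42, 0.43 and 0.74 in controls (0.63 ± 0.31, limma adjusted p = 0.554). Neither pair of groups overlapped, and replicate 1 was the highest in both genes.

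Ndc80 was at 0.79, 0.34, 0.44 and 0.49 with stretch and BIRB796, wholly above the controls listed before (0.41 ± 0.21, limma adjusted p = 0.590). Survivin (Birc5), of the chromosomal passenger complex, was at 0.89, 0.55, 0.65 and 0.53, against 0.09, 0.23, 0.30 and 0.48 in controls. It also showed no overlap, with a log2 fold change of 0.38 ± 0.22 (limma adjusted p = 0.687). Nek2 was at -3.75, -3.68, -3.76 and -4.23 with stretch and BIRB796 and overlapped the controls (0.46 ± 0.29).

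Cenpe, the kinesin that moves chromosomes to the spindle equator, was at -4.13, -4.68, -4.67 and -4.87 with stretch and BIRB796, against -4.92, -4.91, -4.94 and -5.14 in controls (0.39 ± 0.28, limma adjusted p = 0.802). The groups did not overlap, although replicate 4 lay close to the highest control. Bub1b, a spindle checkpoint kinase, was nearest to 0, with levels of -0.85, -1.33, -1.15 and -1.28 with stretch and BIRB796, against -1.17, -1.06, -1.10 and -1.31 in controls (0.01 ± 0.21). Aurkb was at -1.56, -2.03, -2.01 and -1.89 with stretch and BIRB796 (-0.03 ± 0.20).

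Slides again differed in size. On slide 6 all 36 members were higher on stretch with BIRB796 replicate 1 than on control replicate 4, by a median of 0.49. On slide 8, 30 of 36 were higher in the mean of replicates 2 and 3 than on control replicate 7, by a median of 0.12. With session 3 fitted alone, 14 members had an unadjusted p under 0.05, beside 24.7% of all genes, and the lowest adjusted p was 0.0606 (Nuf2), while 1779 genes (7.58%) passed.

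Adding stretch to BIRB796 left the mitosis genes close to the level with BIRB796 alone. No member (0 of 36) and no gene (0%) passed the test, no member had an unadjusted p under 0.05, against 1.81% of all genes, and no member's groups were without overlap, against 2.88% of genes higher and 2.51% lower. The median log2 fold change was -0.05, with 12 of 36 positive (52.7% of all genes), and the values ran from -0.31 to 0.26. The sign of this median turned with 1 array: it was 0.05 without BIRB796 replicate 1, and -0.12 without stretch with BIRB796 replicate 1. It was -0.10 without BIRB796 replicate 4, and between -0.02 and -0.01 without any 1 of the other 3 arrays with stretch and BIRB796. Replicate 1 of both groups shared slide 6, and their levels deviated together over genes (r = 0.53). Within that slide 10 of 36 members were higher with stretch and BIRB796 (52.7% of all genes), with a median difference of -0.07. Within slide 9, 17 of 36 were higher (50.4% of all genes), with a median of -0.02.

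Securin (Pttg1), which holds separase inactive until anaphase, was the farthest from 0, at 3.52, 2.95, 2.65 and 3.36 with stretch and BIRB796, against 3.82, 3.22, 3.62 and 3.05 with BIRB796 alone (-0.31 ± 0.29, limma adjusted p = 1.00). Top2a, which untangles sister chromosomes, was at 0.73, 0.55, 0.61 and 0.61, against 1.04, 0.75, 0.90 and 0.53 with BIRB796 alone (-0.18 ± 0.16). Its other probe had a value of the opposite sign, 0.13 ± 0.16. The groups of both genes overlapped.

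Nusap1, a microtubule-binding spindle protein, was at 1.25, 1.04, 1.01 and 1.05 with stretch and BIRB796, against 1.54, 1.19, 1.32 and 1.01 with BIRB796 alone (-0.18 ± 0.20). Cenpe and Birc5 had the largest positive values, 0.26 ± 0.28 and 0.20 ± 0.22, each with overlapping groups. Birc5 was at 0.65, 0.43, 0.48 and 0.26 and Cenpe at -4.52, -4.97, -4.88 and -5.01 with BIRB796 alone. Ndc80 and Mad2l1 were nearest to 0, both at 0.00, with standard errors of 0.21 and 0.25, and Mad2l1 was at 0.31, -0.08, 0.03 and -0.08 with stretch and BIRB796.

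Stretch alone was compared with control within session 1, where the 3 stretch arrays and the 3 controls shared slides in pairs. No member passed the test (0 of 36, all adjusted p = 1.00), nor did any gene (0%). At an unadjusted p under 0.05 stood 2 members, Cenpe and Ttk, both with negative values, against 3.2% of all genes. Levels on arrays of the same slide deviated together (r = 0.51, 0.15 and 0.57 over genes on slides 1 to 3). With the slide as a random block the count was 8, against 9.07% of all genes, and with the slide as a fixed block in session 1 alone it was 1, against 4.62%, and none passed after adjustment (lowest adjusted p = 0.277 and 0.903). The random block applied 1 correlation within slides to all genes, which the members did not follow on slides 2 and 3. On slide 2, stretch replicate 2 was the highest stretch array for 32 members and control replicate 2 the lowest control for 33. On slide 3, stretch replicate 3 was the lowest stretch array for 34 and control replicate 3 the highest control for 20. The count of 8 rests on that correlation. The stretch arrays lay wholly below the controls for 2 of 36 members, Cenpe and the microtubule depolymerase Kif2c, against 3.52% of all genes, and wholly above for none, against 5.8%. Kinesin and spindle genes had a median log2 fold change of -0.34, and the other roles lay between -0.21 and -0.14.

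The slides did not move the same way. On slide 3, all 36 members were lower on the stretch array, with a median difference of -0.85. On slide 1, 30 of 36 were lower, with a median of -0.22. On slide 2, 33 of 36 were higher on the stretch array, with a median of 0.29. Over all genes the median differences were 0.00, 0.11 and 0.08 on slides 3, 1 and 2.

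**Figure D5:**
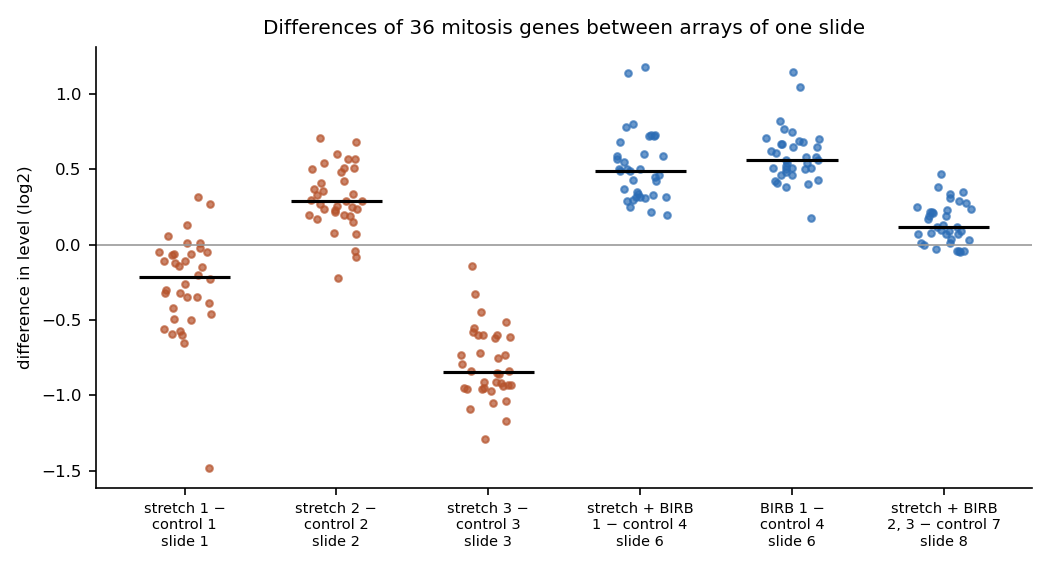
Difference in log2 level between arrays of 1 slide for each of the 36 genes (points), with the median as a line; the first group named is on top of the difference. The medians are -0.22, 0.29 and -0.85 for stretch on slides 1 to 3, and 0.49 and 0.56 on slide 6 and 0.12 on slide 8 for the groups with BIRB796.

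Stretch replicate 3 carried the median. Without it the median was -0.02, with 17 of 36 positive. The median was -0.39 without stretch replicate 2, -0.35 without control replicate 2 and -0.13 without control replicate 3.

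Cenpe had levels of -5.78, -4.90 and -4.79 in the stretch tissues of session 1, against -4.31, -4.68 and -3.88 in their controls. The groups did not overlap, and Cenpe was lower on the stretch array of all 3 slides. The log2 fold change was -0.87 ± 0.32 (limma adjusted p = 1.00).

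Ttk, the kinase that starts the spindle checkpoint, was at -0.22, 0.28 and -0.69 in stretch tissues, against 0.38, 0.03 and 0.40 in controls, with a log2 fold change of -0.48 ± 0.21 (limma adjusted p = 1.00). Stretch replicate 2 lay within the controls' range. Ccnb2 was at -0.35, 0.06 and -0.45 in stretch tissues, against 0.22, -0.01 and 0.47 in controls (-0.47 ± 0.28). Bub1b was at -1.16, -0.77 and -1.89 in stretch tissues, against -0.68, -1.06 and -0.72 in controls (-0.45 ± 0.24).

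The kinase Melk was at -1.03, -0.71 and -1.84 in stretch tissues, against -0.53, -0.88 and -0.86 in controls (-0.43 ± 0.22). Kif11 and Nek2 had the smallest values, -0.03 ± 0.22 and 0.01 ± 0.34. In Kif11, levels of -0.63, -0.50 and -1.31 in stretch tissues stood against -0.69, -1.20 and -0.45 in controls, so each group covered much of the other's range. In Nek2, levels were -4.12, -3.71 and -4.42 in stretch tissues, against -4.07, -3.94 and -4.28 in controls.

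Cdk1 was at 3.05, 3.33 and 2.68 in stretch tissues, against 3.37, 2.97 and 3.52 in controls (-0.27 ± 0.19). Ccnb1 was at 0.71, 0.81 and -0.03, against 0.77, 0.30 and 0.73 in controls (-0.10 ± 0.26). Top2a was at 0.51, 0.62 and -0.06, against 0.62, 0.32 and 0.55 in controls (-0.14 ± 0.19), and Aurkb at -1.49, -1.38 and -1.92, against -1.36, -1.72 and -1.41 in controls (-0.10 ± 0.23). All 4 overlapped, and in each of them stretch replicate 3 was the lowest of the 6 arrays.

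In session 2, which held stretch arrays alone, the mean level of the 36 genes was -0.42, -0.43, -0.53 and 0.07 on stretch replicates 4 to 7. Cenpe and Top2a stood apart from the other sessions there. Cenpe was at -8.08, -8.74, -6.97 and -7.42, with replicate 6 the one array above background, below every array of the other sessions. Top2a was at -0.17, -0.16, -0.71 and -0.64, again below all other arrays. Birc5 was at -0.91, -0.87 and -0.72 on replicates 4 to 6 and 0.48 on replicate 7.

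With no control in session 2, session and stretch cannot be told apart on these arrays. When sessions 2 and 3 were treated as 1 set, 2 of 36 members, Cenpe and Top2a, passed the test with a level lower on stretch than on control arrays, while 8.7% of all genes passed, and the median of the 36 was -0.08. Top2a had a log2 fold change of -0.61 ± 0.16 there (limma adjusted p = 0.0322). No size is given for Cenpe, which was not above background on 3 of the 4 arrays of session 2.

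Stretch with BIRB796 and stretch alone shared no session, so they were compared through the controls of sessions 3 and 1. No member (0 of 36) and no gene (0%) passed the test. All 36 values were positive (45.8% of all genes), with a median of 0.48 and a range of 0.07 to 1.26. An unadjusted p under 0.05 was reached by 5 members, against 2.4% of all genes. These were Cenpe (1.26 ± 0.43), Tpx2 (0.75 ± 0.27), Nuf2 (0.74 ± 0.34), the kinetochore protein Cenpf (0.63 ± 0.29) and Kif2c (0.61 ± 0.27), with limma adjusted p of 1.00 each. Ccnb2 (0.75 ± 0.38) and Prc1 (0.72 ± 0.35) were also among the largest, and Mad2l1 (0.16 ± 0.39) and Aurkb (0.07 ± 0.30) the smallest. Without stretch replicate 3 the median was 0.26, with 34 positive. With sessions 2 and 3 as 1 set the median was 0.22, and the same 2 of 36 members passed, against 1.25% of all genes. Top2a was 0.89 ± 0.20 higher on the log2 scale with stretch and BIRB796 than with stretch (limma adjusted p = 0.0442), a difference that rests in part on session 2. With the slide as a random block, 17 members had an unadjusted p under 0.05, against 5.92% of all genes, and none passed after adjustment (lowest adjusted p = 0.559). The count of 17 also rests on 1 correlation for all genes, which the members did not follow on slides 2 and 3.

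The last comparison asks whether the stretch response differs with and without BIRB796. No member (0 of 36) and no gene (0%) passed the test of this difference, and 1 member, Cenpe, had an unadjusted p under 0.05, against 1.29% of all genes. The median difference was 0.17, with 31 of 36 positive (42.6% of all genes), against a median of -0.05 over all genes. Cenpe had the largest value (1.13 ± 0.43), then Ccnb2 (0.48 ± 0.38), Ttk (0.41 ± 0.28), Tpx2 (0.41 ± 0.27) and Birc5 (0.40 ± 0.34), and Foxm1 (0.03 ± 0.25) and Kif11 (-0.02 ± 0.29) were nearest to 0, all with limma adjusted p of 1.00. The median was 0.00 without stretch replicate 3, with 18 of 36 positive, 0.32 without stretch replicate 2, 0.31 without control replicate 2 and 0.10 without control replicate 3. It was 0.11 without stretch with BIRB796 replicate 1 and 0.27 without BIRB796 replicate 1.

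Further sets of cell cycle genes, also chosen with earlier results of these data known, were measured beside the members. Of 47 other genes of mitosis, 40 were measured and none passed the test in any of the 6 comparisons. Their median log2 fold change was 0.20 with BIRB796 alone (36 of 40 positive), 0.19 with stretch and BIRB796 (38 of 40) and -0.14 with stretch alone (12 of 40). With sessions 2 and 3 as 1 set, 7 of the 40 passed with lower levels on stretch than on control arrays, against 8.7% of all genes. These were Cenpi, Depdc1, Knstrn, Kntc1, Ncapg, Pbk and Smc4, with log2 fold changes of -1.0 to -0.38. Of these 7, 5 (Cenpi, Knstrn, Ncapg, Pbk and Smc4) passed with higher levels on stretch with BIRB796 than on stretch arrays, by 0.78 to 1.36, against 1.25% of all genes. Knstrn also passed for stretch with BIRB796 against stretch with no batch term, when 0.652% of all genes did. These calls rest in part on session 2, where session and stretch cannot be told apart. Cit passed for stretch with BIRB796 against control with session 3 alone, when 7.58% of all genes did. Of 30 DNA replication genes, all were measured and none passed. Their medians in the same order were 0.01 (16 of 30 positive), -0.03 (11 of 30) and -0.11 (9 of 30), against 0.01, 0.04 and 0.08 over all genes. Of 25 genes that control CDKs and the G1 phase, 23 were measured and none passed, with medians of -0.04, -0.06 and -0.04. On the 4 BIRB796 arrays the mean level of the replication genes ran from -0.03 to 0.19, against 0.08 to 0.09 on the 4 controls, so these groups overlapped. The mean of the 40 other mitosis genes also overlapped, at -0.86 to -0.47 against -0.98 to -0.85. That of the 36 members did not, at -0.24 to 0.26 against -0.33 to -0.30, a narrow gap.

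Markers of other cell types moved with the same groups. The mean level of 6 smooth muscle markers, all above background on all arrays, was 1.88 to 2.88 with stretch and BIRB796 and 1.86 to 2.66 with BIRB796 alone, against 0.76 to 1.42 in the controls of session 3. That of 7 mesothelium markers, 5 of them above background on all arrays, was -2.23 to -1.24 and -2.32 to -1.42, against -1.15 to -0.34. The 8 endothelium markers, 5 of them above background on all arrays, had means of -3.43 to -2.97 with stretch and BIRB796 and -3.0 to -2.44 with BIRB796 alone, against -2.49 to -2.09 in controls. The macrophage list was at 1.40 to 1.58 and 1.57 to 2.01, against 1.60 to 2.61. With stretch and BIRB796 these 4 lists lay apart from the controls, and with BIRB796 alone the smooth muscle and mesothelium lists did. The erythroid list also lay apart with stretch and BIRB796 (-5.61 to -5.37, against -5.29 to -5.11), but not with BIRB796 alone (-5.40 to -5.13). The fibroblast list overlapped the controls in both groups (2.41 to 2.53 and 2.13 to 2.47, against 1.59 to 2.49). Replicate 1 of each BIRB796 group, the highest for most mitosis genes, was also the highest for the smooth muscle list and the lowest for the mesothelium list (2.88 and -2.23, and 2.66 and -2.32). The 12 cardiomyocyte markers had means of 5.57 to 5.72 with stretch and BIRB796 and 5.56 to 5.70 with BIRB796 alone, against 5.44 to 5.83 in controls. In session 1, stretch replicate 3, the lowest for most mitosis genes, was also the lowest of the 6 arrays for the macrophage (0.33), smooth muscle (0.28), fibroblast (1.72), endothelium (-2.39) and erythroid (-4.37) lists and for the DNA replication genes (-0.28), and the highest for the cardiomyocyte list (5.76). The 9 macrophage markers, 7 of them above background on all arrays, had means of 0.33 to 1.03 in stretch tissues, against 0.90 to 1.91 in controls. The endothelium means of session 1 were -2.39 to -2.20 in stretch tissues, against -2.07 to -1.85 in controls, without overlap. The part of these markers in the values of the mitosis genes was not tested.

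Another probe was present for 8 members. The probes of a gene differed in sign in some comparisons, among Cenpf, Foxm1, Nek2, Prc1 and Top2a. Cenpf's other probe gave 0.04 ± 0.25 with BIRB796 alone, where the probe used gave 0.27 ± 0.19. In that comparison Foxm1's other probe gave 0.40 ± 0.19 (probe used 0.20) and Top2a's 0.11 ± 0.16 (probe used 0.29). Top2a's other probe gave -0.51 ± 0.18 with stretch alone, where the probe used gave -0.14 ± 0.19, and both missed the test. Bub1's gave -0.67 ± 0.27 (probe used -0.15) and Cenpf's -0.61 ± 0.28 (probe used -0.43). These other probes had an unadjusted p under 0.05 (limma), and those of Ccna2, Foxm1, Kif2c, Nek2 and Prc1 did not. For the difference of the stretch responses, those of Cenpf (1.03, probe used 0.35) and Top2a (0.64, probe used -0.04) reached it, and the rest did not. Counts at that threshold thus depend on the probe.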

How the data were processed

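Total RNA of 22 tissues was hybridised to 1-colour Agilent rat arrays. Values in the scanner files the authors deposited are spot intensity after background subtraction, on a linear scale and before any scaling of arrays to each other, as read per the file headers. A further deposited table gives log2 values of 27873 probes with an unstated baseline. Each of its 22 columns matched its own array best (lowest r = 0.9996), and column medians ran from -0.11 to 0.40.

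Processed signals were taken to log2, spots averaged per probe (293 values with outlier flags left out), and the array's 75th percentile subtracted. The filter kept the 26879 probes that 4 or more arrays showed well above background, and the probe with the highest mean stood for a gene (23476 genes). RefSeq tables of assembly GRCr8 named probes by accession (17998), symbol (2359) or synonym (614), and the file named the rest (9396). Groups came from the labels, whose design text calls the samples biological replicates. limma 3.58.1 in R 4.3.3 fitted group and scan session on 21 samples, and a Benjamini-Hochberg adjusted p under 0.05 was a call. The number of arrays limits the precision. The fit held 1 residual spread per gene over all 21 samples, so the standard errors of each comparison draw on every session. In simulated data of 23255 genes, 0% of genes changed by 0.5, 35% of those changed by 1 and 84% of those changed by 2 on the log2 scale were called for BIRB796 against control, and 0%, 29% and 72.5% for stretch against control.

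The members and gene lists were chosen with earlier results of these data known. Members given in full were any called, the 5 largest and 2 smallest absolute values of each comparison, and Top2a, Ccnb1, Cdk1, Aurkb and Cenpe.

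Alternatives were the batch terms, blocks, background correction (normexp, on median spot signals because not all files hold mean ones), scaling, probe filter and choice, the deposited table, and leaving out samples. Deviations of same-numbered samples in different groups correlated at r from -0.18 to 0.57. In session 1 the numbers mark shared slides, and all 3 pairs were above 0.1. Elsewhere they were not taken as pairs.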

Additional observations from a re-analysis of the deposited data

Results flagged for a closer look

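In groups of 4 arrays, the gap of 1 array to the nearest other was divided by the group's range. This ratio was above Dixon's 95% critical value in 9 of 66 groups of values examined. Chance gives about 1 in 20 for independent groups. These groups share arrays and the genes moved together, so the share cannot be set against that rate. Replicate 1 of stretch with BIRB796 stood apart and high in Kif23 (gap ratio 0.89, level 1.62 against 0.94 to 1.01), Nusap1 (0.854, 1.25 against 1.01 to 1.05), Prc1 (0.908, 1.34 against 0.91 to 0.95) and the mean of the 36 genes (0.911, 0.18 against -0.17 to -0.14). Replicate 4 of that group was low in Nek2 (0.858, -4.23 against -3.76 to -3.68). Control replicate 7 was low in Cenpe (0.896, -5.14 against -4.94 to -4.91) and Pttg1 (0.895, 2.79 against 3.25 to 3.30), and high in Nuf2 (0.895, -0.24 against -0.40 to -0.38). Control replicate 4 was low in the mean of the 36 genes (0.854, -0.33 against -0.30 on the other 3), a small gap on a group whose SD was 0.02.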

How the results depend on the processing

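The count of called members stayed at 0 in all 6 comparisons under every alternative run but one. With sessions 2 and 3 as 1 array set, it was 2 for stretch against control and 2 for stretch with BIRB796 against stretch. The median of stretch with BIRB796 against stretch was 0.48, against 0.23 with no batch term and 0.22 with the array set. The other medians moved by less than the SD between replicates. That SD (0.23) is about as large as the medians against control, so a smaller move can still take away most of a median. Leaving out 1 sample at a time, the count was 0 throughout, and the medians ran from -0.39 to -0.02 for stretch, 0.16 to 0.33 for BIRB796 and 0.16 to 0.26 for stretch with BIRB796 against control, -0.12 to 0.05 against BIRB796, 0.26 to 0.62 against stretch, and 0.00 to 0.32 for the difference of the stretch responses. With the replicate block the medians were -0.23, 0.08 and 0.14 against control (2, 26 and 31 of 36 positive), -0.05 against BIRB796 and 0.17 for the difference, with 0 calls; no such fit was had for stretch with BIRB796 against stretch. The slide as a random block gave 0.36 for BIRB796 and 0.31 for stretch with BIRB796. Of the alternatives chosen after seeing the data, leaving out slide 6 gave 0.14 (33 positive) and 0.16 (29 positive), and averaging control replicates 4 to 6 gave 0.26 and 0.26. Over all genes, the 23 calls of stretch with BIRB796 against control became 1779 in session 3 alone and 0 with those controls averaged. For this comparison the median SE of the 36 members was 0.21 in the fit on all sessions and 0.12 in session 3 alone. Their median log2 fold change was 0.24 in both. The fit on all sessions takes its residual spread from every session. The cause of the change in calls was not tested. Of the members, Cenpe alone was not above background on all 22 arrays, so its levels in session 2 are limited by the signal.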

Other observations

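Probes outside the rule describe 3 of the 4 members not found by name. The one whose description names anillin (Anln), an actin-binding protein of the cleavage furrow, had a log2 fold change of 0.69 ± 0.21 with BIRB796 alone (limma adjusted p = 0.4), 0.67 ± 0.21 with stretch and BIRB796 (adjusted p = 0.248) and 0.07 ± 0.24 with stretch alone (adjusted p = 1.00), the first 2 above the value of any of the 36 members. The one for Ect2, which activates RhoA in cytokinesis, had 0.25 ± 0.18, 0.16 ± 0.18 and -0.21 ± 0.21 in the same order. The one for Kif4a, a chromosome-bound kinesin, had 0.08 ± 0.31, 0.09 ± 0.31 and -0.47 ± 0.36, and was above background on 18 arrays. They were chosen after the files were read and enter no count.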
